A study of Mus musculus with 30 samples.

Results

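The transcripts of 10 receptor tyrosine kinases that are common in sarcomas were followed across 5 fibrosarcoma lines: the PDGF receptors Pdgfra and Pdgfrb, the EGF receptor family members Egfr and Erbb2, the HGF receptor Met, the GAS6 receptor Axl, the FGF receptors Fgfr1 and Fgfr2, the stem cell factor receptor Kit and the collagen receptor Ddr2. They were picked by gene symbol as kinases common in sarcomas, by a rule that uses no measured value although earlier results of these data were known, and make up 10 of the 48440 genes in the count table. All 10 passed the filter on low counts that left 16862 genes for testing. The lines were primary lines from sarcomas induced by 3-methylcholanthrene (MCA) and were grown in vivo in C57BL/6 mice. The labels give the mouse strain as Ncr1Cre for MCA-943 (4 tumors) and as Ncr1Cre R26DTA for MCA-948 (8 tumors), MCA-969 (8 tumors), MCA-970 (6 tumors) and MCA-972 (4 tumors). In the R26DTA strain, cells that express Cre from Ncr1, the gene of the NK cell receptor NKp46, make a toxin and die. The study groups its lines by the genotype of the mouse in which the primary tumor developed, so the strain is taken as that of the mouse of origin. Hematopoietic cells had been removed with CD45 beads before RNA extraction. Each line came from a single primary sarcoma, so a difference between lines is a difference between individual tumors of origin. No age or sex of the mice is given in the sources used here.

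Receptor tyrosine kinases are membrane proteins that pair up when a ligand binds, phosphorylate each other and recruit adaptors that switch on the RAS-MAPK, PI3K and PLC gamma pathways. The PDGF receptors, Fgfr1, Ddr2 and Axl are typical of fibroblasts and other mesenchymal cells. Met and the ERBB receptors are best known from epithelia, and Kit from mast cells, melanocytes and blood progenitors, and all of them can drive tumors when amplified or mutated.

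Counts assigned to genes ranged from 27745104 to 46537062 per tumor. Values are CPM, counts per 1000000 after TMM scaling, and levels of different genes are compared only as RPKM, which also divides by gene length. The study's methods describe an injection into the right flank, so the tumors of a line are taken as transplants of that line in separate mice, which the labels do not state, and the p-values measure the spread between transplants. Library numbers in the count table fall into 3 stretches of consecutive numbers, called runs here; no label names a sequencing run, and the stretches may not be separate batches. Each holds 2 or 3 of the lines. The fibroblast markers Dcn, Lum, Thy1, Vim, Fn1, Fap and S100a4 were detected in every line, with summed means from 8828 CPM in MCA-948 to 24389 CPM in MCA-943. Leukocyte markers summed to 11.5 to 248 CPM per tumor. The tumors MCA-969 W-2D and W-1D correlated least with their own line, at a mean r of 0.968 and 0.978, and the labels mark both as sensitive to NK cells whereas the other 6 MCA-969 tumors are marked as not sensitive. In bulk RNA, fewer cells of a type and less RNA per cell cannot be told apart.

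Of the 10 receptors, 9 differed across the 5 lines, at an adjusted p under 0.05 with at least 1 pair of lines apart by a log2 fold change of 1. By the same rule 58.0% of all genes tested were called, so most of the transcriptome differed between these lines and the share among the receptors is to be read against that. Ddr2 alone was not called. The largest log2 fold change of a receptor between any pair of lines had a median of 2.05 over the 10 receptors and of 1.19 over all genes tested. The receptors that varied most were Fgfr2, by up to 6.87, Kit, by up to 5.94, and Met, by up to 5.54 on the log2 scale.

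**Figure D1:**
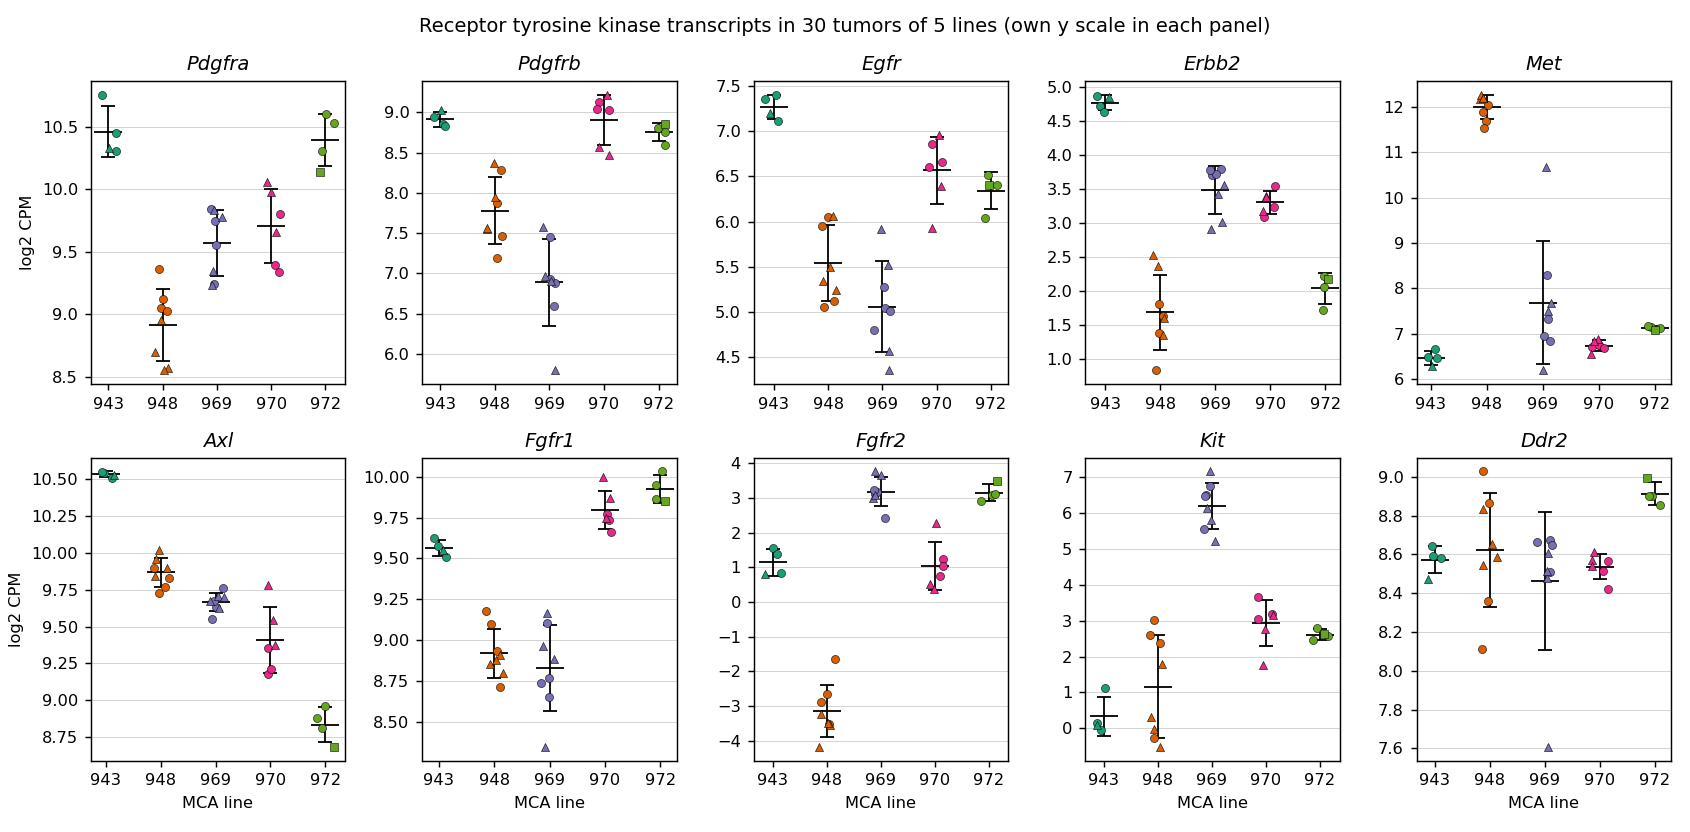
Log2 CPM (prior count of 2) of the 10 receptors in each of the 30 tumors, with the lines MCA-943 to MCA-972 on the x axis; circles are tumors with the title letter a, triangles those with W, the square the tumor without a letter, and bars are the mean and SD of a line. Each panel has its own y scale. All 8 MCA-948 tumors lie above every other tumor for Met and below every other tumor for Fgfr2, and all 8 MCA-969 tumors lie above every other tumor for Kit.

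Per gene length, the same mesenchymal receptors led in most lines. Axl had the highest mean RPKM of the 10 receptors in MCA-943 (294 ± 4.08, SD, n = 4), MCA-969 (162 ± 7.01, n = 8) and MCA-970 (136 ± 22.2, n = 6). Pdgfra was highest in MCA-972, at 135 ± 19.4 RPKM (n = 4). In MCA-948, Met came first at 540.4 ± 93.6 RPKM (n = 8), ahead of Axl at 186 ± 12.4 RPKM. Fgfr2 or Kit came last in every line, both at under 1 RPKM except Kit in MCA-969 at 8.97 ± 3.92 RPKM. Ddr2 held rank 5 in each of the 5 lines.

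Between pairs of lines, the number of receptors called and the share of all genes called by the same rule were as follows. MCA-943 differed from MCA-948 in 7 receptors (29.0% of all genes), from MCA-969 in 6 (27.0%), from MCA-970 in 3 (27.3%) and from MCA-972 in 4 (25.6%). MCA-948 differed from MCA-969 in 4 (20.8%), from MCA-970 in 6 (29.4%) and from MCA-972 in 5 (26.8%). MCA-969 differed from MCA-970 in 5 (21.4%) and from MCA-972 in 6 (20.6%), and MCA-970 from MCA-972 in 2 (17.6%). In total 48 of the 100 receptor differences were called. In 6 of these 48 the ranges of the tumors overlapped. These were Met between MCA-969 and each of MCA-943, MCA-970 and MCA-972, Kit between MCA-948 and both MCA-943 and MCA-970, and Egfr between MCA-948 and MCA-970. The share of overlapping ranges among all genes called was not counted, so these 6 are given only as limits of single calls.

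With the run, as inferred from the library numbers, as a covariate, several of these calls did not hold: Pdgfrb between MCA-943 and MCA-948 (0.95), Fgfr2 between MCA-943 and both MCA-969 (-2.01, adjusted p = 0.133) and MCA-972 (-1.88), Kit between MCA-943 and both MCA-970 (-2.08) and MCA-972 (-2.23) and between MCA-948 and MCA-970 (-0.92), Pdgfra between MCA-948 and MCA-972 (-0.80), and the calls of Erbb2, Fgfr1 and Axl given with those genes. Met between MCA-969 and MCA-972 (0.40) and Kit between MCA-943 and MCA-948 (-1.17) were also lost. Added calls were sought only among the 74 differences with an adjusted p under 0.05 without the covariate, and numbered 6. These were Pdgfra between MCA-943 and both MCA-969 (1.56) and MCA-970 (1.12), and Fgfr1 between MCA-943 and MCA-969 (1.17) and between MCA-969 and MCA-970 (-1.11). The others were Pdgfrb (-1.39) and Egfr (-1.16), both between MCA-948 and MCA-972. Within the one run that holds MCA-948 and MCA-969, with 2 tumors of each and W-1D among them, Met differed by 1.85 and Kit by -4.61 on the log2 scale, neither called.

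**Figure D2:**
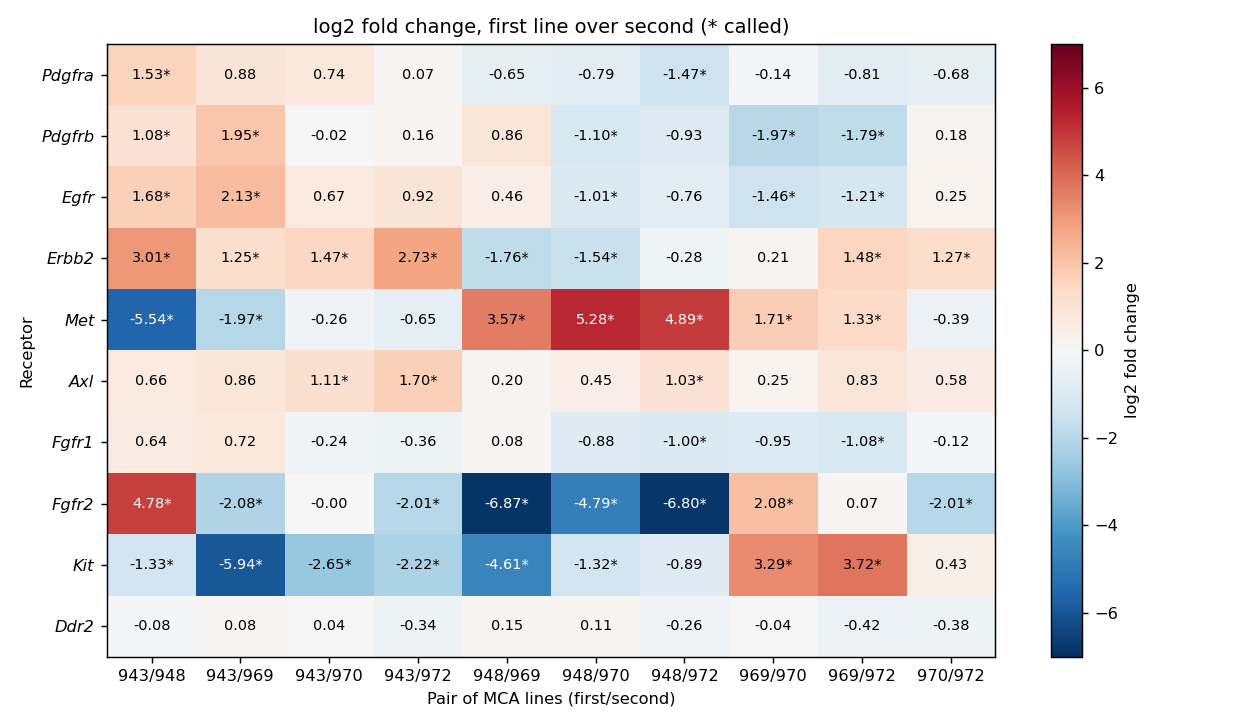
Log2 fold change of each receptor (rows) between each of the 10 pairs of lines (columns, first line over second), with the value in each cell and a star where it was called; red is higher in the first line and blue is lower. The deepest colors are in the rows of Met, Fgfr2 and Kit, whereas no cell of Ddr2 exceeds 0.42 in size.

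Met, the receptor for hepatocyte growth factor, set MCA-948 apart. Its CPM in MCA-948 ran from 2961 through a median of 4426 to 4876. In MCA-943 the 4 tumors had 77.8, 89.0, 89.3 and 101 CPM. In MCA-970 the lowest, median and highest tumors had 93.5, 106 and 118 CPM, and the 4 MCA-972 tumors had 135, 139, 141 and 144 CPM. No tumor of another line reached the range of MCA-948. The fold over MCA-943 was 46.5 (log2 fold change 5.54 ± 0.67, SE, edgeR adjusted p = 3.28e-08). It was 38.8 over MCA-970 (adjusted p = 1.74e-09), 29.7 over MCA-972 (adjusted p = 1.94e-07) and 11.8 over MCA-969 (adjusted p = 7.64e-08).

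MCA-969 was the line least uniform for Met. Its tumors had a lowest value of 73.1, a median of 172 and a highest of 1626 CPM, a coefficient of variation of 149%, against 2.60% to 17.3% in the other 4 lines. The highest value belonged to the tumor W-1D, which was 5.17 times the next highest MCA-969 tumor, at 315 CPM. With all 8 tumors, Met was called higher in MCA-969 than in MCA-943 (log2 fold change 1.97 ± 0.55, adjusted p = 0.00274), MCA-970 (1.71 ± 0.46, adjusted p = 0.00217) and MCA-972 (1.33 ± 0.53, adjusted p = 0.0356). Without W-1D these differences were 0.93, 0.66 and 0.27, none of them called. The last was also lost when any 1 MCA-972 tumor was left out. Without W-1D the log2 fold change of Met, MCA-948 against MCA-969, was 4.6196, against 3.57 with that tumor, called in both cases.

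Since the difference was so large, the genes around Met were examined. On GRCm38, Met lies on chromosome 6, chr6:17463800-17573980, on the plus strand. All 14 other genes tested within 500000 bases of its start were called higher in MCA-948 than in MCA-943, where 29.0% of all genes were called in either direction; each of the 14 was also called higher in MCA-948 than in MCA-969, MCA-970 and MCA-972. Several of the 14 are short or low transcripts inside other genes, and the strand setting of the counting is not given in the sources used here, so they are not independent of their hosts. Met itself is overlapped by no other gene of the table.

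Among them were 5 well expressed protein-coding genes. Tes, a focal adhesion protein gene at chr6:17065149-17105828, had a mean of 5470 ± 1046 CPM in MCA-948 and 92.6 to 302 CPM in the other lines. The caveolins Cav2 and Cav1, which coat the membrane pits called caveolae, had 1294 ± 406 and 12063 ± 2555 CPM in MCA-948 against 34.9 to 58.7 and 445 to 1027 CPM elsewhere. Capza2, an actin capping subunit, had 6850 ± 1778 CPM against 179.8 to 288 CPM. St7, named as a suppressor of tumorigenicity, had 426 ± 88.1 CPM against 20.04 to 29.7 CPM. Over MCA-943 these amounted to a log2 fold change of 4.91 for Tes, and to 37.0-fold for Cav2, 24.3-fold for Cav1, 28.7-fold for Capza2 and 16.1-fold for St7, beside the 46.5-fold of Met. In every tumor of MCA-948 these 5 genes were above every tumor of the other lines.

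The genes higher in MCA-948 than in each other line reached from Tfec to Gm43844, whose starts lie at -630427 and 451196 bases from the start of Met. The next gene tested on the far side, Wnt2 at 525140 bases, had 0.541 CPM in MCA-948 and was called lower there than in MCA-943 and MCA-972. On the near side, Mdfic at -1743139 bases had 40.2 ± 5.26 CPM in MCA-948 and 53.8 to 72.5 CPM elsewhere. DNA copy number was not measured in these samples. In the MCA-969 tumor with high Met, W-1D, the neighbors did not follow: Capza2 had 235 CPM, St7 30.02 and Cav1 460 CPM, inside the ranges of the other 7 MCA-969 tumors, while Cav2 had 37.1 CPM, just below the lowest of them (38.1), and Tes 123 CPM, above the highest of them (105). This tumor was singled out after its values had been seen.

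**Figure D3:**
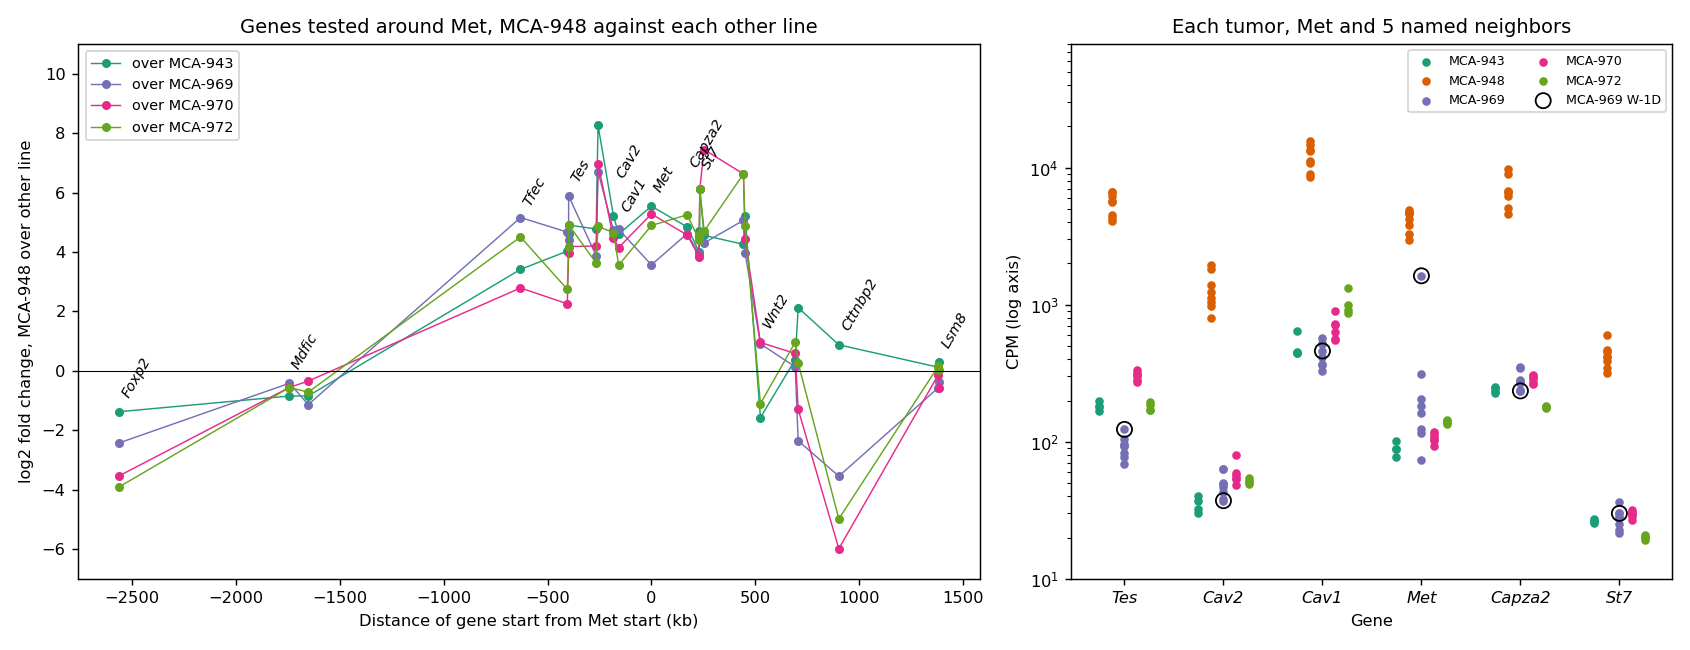
Left, log2 fold change of MCA-948 over each other line for every gene tested within 3000000 bases of Met, against the distance of the gene start from the start of Met in kb; lines join the genes of a comparison. Right, CPM on a log axis of Met and 5 neighbors in each tumor, colored by line, with the MCA-969 tumor W-1D circled. The raised block runs from Tfec to Gm43844, and the circled tumor stands out for Met at 1626 CPM but not for Cav1 at 460 CPM.

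The neighbors of the other receptors were called with them less often in these counts, whose difference was not tested. In the pair of lines with the largest difference of each receptor, the genes within 500000 bases called in its direction were 1 of 5 for Pdgfra, 3 of 14 for Pdgfrb, 2 of 11 for Egfr, 6 of 28 for Erbb2, 6 of 15 for Axl, 0 of 23 for Fgfr1, 0 of 4 for Fgfr2, 1 of 4 for Kit and 2 of 10 for Ddr2. In the pairs used, 20.6% to 29.0% of all genes were called in either direction, and the share in 1 direction was not counted. The neighbors called with Pdgfrb were Cd74, Arsi and Csf1r, of which Cd74 and Csf1r are genes of leukocytes. That of Kit was Kdr, an endothelial receptor discussed with Kit. Egfros, called with Egfr, is antisense to it, and Mir7025, called with Pdgfra, lies within it. Pdgfra and Kit are themselves neighbors on chromosome 5, chr5:75152292-75198215 and chr5:75574916-75656722, but differed in other lines: Kit was highest in MCA-969, Pdgfra in MCA-943 and MCA-972.

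Kit, the receptor for stem cell factor, marked MCA-969. Its tumors there had 36.9, 79.2 and 143 CPM (lowest, median, highest). The 4 MCA-943 tumors had 0.913, 1.02, 1.06 and 2.13 CPM. In MCA-948 the lowest, median and highest were 0.642, 2.29 and 8.02 CPM, in MCA-970 3.36, 8.53 and 12.6 CPM, and the 4 MCA-972 tumors had 5.41, 5.84, 6.07 and 6.93 CPM. Every MCA-969 tumor was above every other tumor. The fold over MCA-943 was 61.4 (log2 fold change 5.94 ± 0.66, adjusted p = 8.49e-09), over MCA-948 24.5, over MCA-972 13.2 and over MCA-970 9.79 (log2 fold change 3.29 ± 0.46, adjusted p = 5.59e-07).

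The lower levels of Kit were ordered MCA-943, MCA-948, MCA-972, MCA-970. MCA-943 was below MCA-972 (log2 fold change -2.22 ± 0.62, adjusted p = 0.00336) and MCA-970 (-2.65 ± 0.60, adjusted p = 0.000365). MCA-948 and MCA-972 were not called apart (-0.89 ± 0.48, adjusted p = 0.105), nor were MCA-970 and MCA-972 (0.43 ± 0.51, adjusted p = 0.506). MCA-943 was just called below MCA-948 (-1.33 ± 0.57, adjusted p = 0.0432), a call that 15 of 44 alternatives did not make.

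Kit is also made by cells that a tumor can hold besides its malignant cells, so their markers are given beside it. In MCA-969, the 7 mast cell markers summed to 0.0828 to 2.47 CPM per tumor and the 5 melanocyte markers to 0.433 to 0.773 CPM, with Mlana and Tyrp1 at 0 counts, against the 36.9 to 143 CPM of Kit. The 7 endothelial markers, Kdr among them, summed to 64.3 to 207 CPM in MCA-969, 265 to 519 CPM in MCA-970 and 20.3 to 372 CPM in MCA-948. Within MCA-948, Kit and the endothelial sum rose together over the 8 tumors (Pearson r = 0.976, exact permutation p = 0.000298, adjusted 0.00268 over 9 relations; Spearman rho = 0.976, p = 0.000397, adjusted 0.00357). Without the 2 tumors farthest from the median r was 0.960, and among the 6 tumors of one run 0.983. The 9 relations, here and under Pdgfrb and Egfr, were chosen after the values had been seen. Their p-values, also when adjusted, do not account for that choice and describe these tumors only. In MCA-970 r was 0.881 over 6 tumors, all of one run (exact permutation p = 0.0139, adjusted 0.025; rho = 0.8286, p = 0.0583, adjusted 0.0875; 0.818 without the 2 farthest). In MCA-969 the sign was the opposite, with r = -0.697 over 8 tumors (exact permutation p = 0.0517, adjusted 0.0665; rho = -0.667, p = 0.0831, adjusted 0.107; -0.626 without the 2 farthest and -0.676 within 1 run). The 7 epithelial and keratinocyte markers summed to 349 to 1191 CPM in MCA-969, above every tumor of MCA-948 (68.7 to 148 CPM) and of the other 3 lines (1.91 to 12.4 CPM). Nearly all of that was Krt8 (385 CPM on average) and Krt18 (255 CPM), whereas Epcam had 4.84 CPM, Cdh1 0.318 CPM and Krt5 0.357 CPM. The part of endothelial or epithelial cells in the Kit levels was not tested, and whether the lines differ in this relation was not tested.

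**Figure D4:**
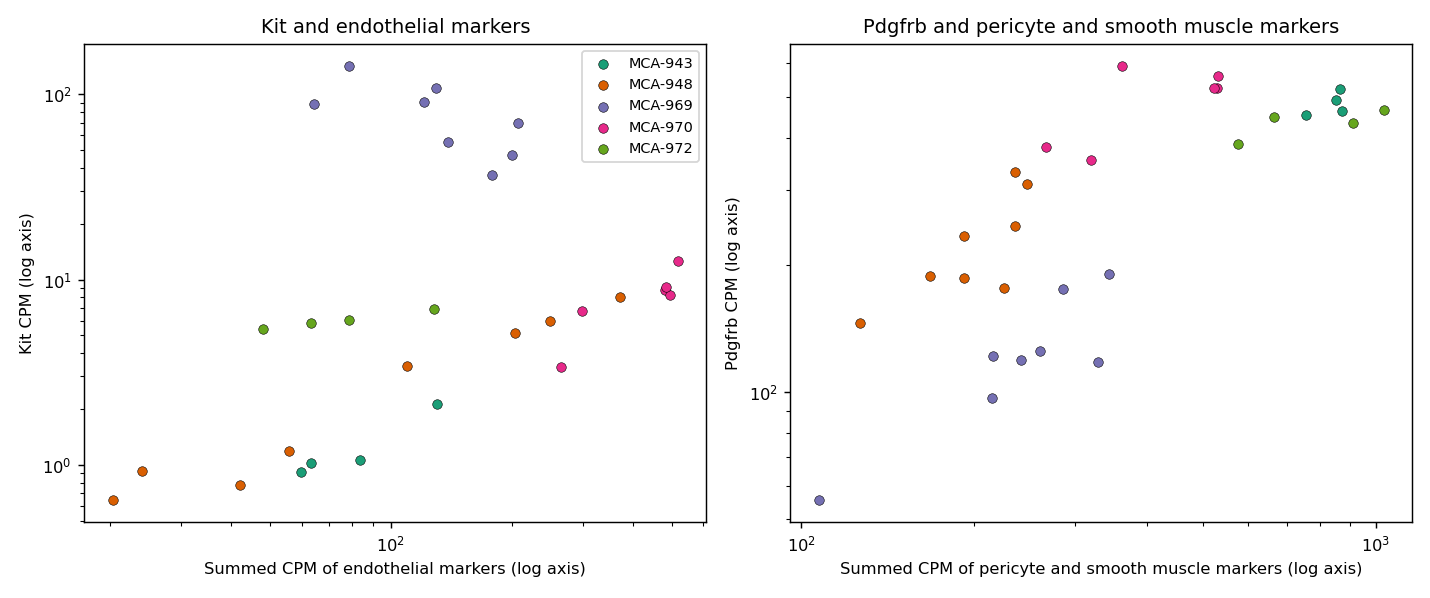
Each point is a tumor, colored by line, on log axes in CPM: left, Kit against the summed endothelial markers; right, Pdgfrb against the summed pericyte and smooth muscle markers. The MCA-948 tumors form a rising line for Kit, from 0.642 to 8.02 CPM, while the MCA-969 tumors sit above all others at 36.9 CPM or more.

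Fgfr2, an FGF receptor that is strong in many epithelia, was low everywhere and close to absent in MCA-948. The 8 MCA-948 tumors together held 23 counts, with 0 counts in 1 tumor, at most 3 in 5 tumors and 10 in the highest, or 0 to 0.266 CPM with a median of 0.0422 CPM; a count of 3, the limit that a count of 0 allows, is 0.0825 CPM on average there. In MCA-969 the lowest, median and highest were 5.28, 8.84 and 13.5 CPM, and the 4 MCA-972 tumors had 7.43, 8.41, 8.63 and 11.2 CPM. The 4 MCA-943 tumors had 1.69, 1.73, 2.55 and 2.87 CPM, and MCA-970 had 1.25, 1.80 and 4.78 CPM. The lines thus formed 3 levels that did not overlap. MCA-969 and MCA-972 were not called apart (log2 fold change 0.07 ± 0.32, adjusted p = 0.863), nor MCA-943 and MCA-970 (-0.00 ± 0.35, adjusted p = 0.993). MCA-969 was 4.23-fold above MCA-970 (2.08 ± 0.30, adjusted p = 1.03e-06). The differences from MCA-948 were called for each other line, with log2 fold changes from 4.78 to 6.87 that depend on the prior count. MCA-969 and MCA-972, both high in Fgfr2, had the highest and the lowest sums of epithelial markers. The annotated span of Fgfr2 overlaps many other genes and the count for Fgfr2 is small beside theirs, so its counts are uncertain where reads could be shared.

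Fgfr1, the FGF receptor of mesenchymal cells, varied less. The 4 MCA-943 tumors had 729, 749, 762 and 788 CPM, and the 4 MCA-972 tumors 922, 929.7, 989 and 1047 CPM. The lowest, median and highest were 418, 474 and 578 CPM in MCA-948, 325, 453 and 573 CPM in MCA-969, and 809.5, 866 and 1021 CPM in MCA-970. MCA-948 and MCA-969 overlapped each other and lay below the other 3 lines. Called at a log2 fold change of 1 were MCA-969 against MCA-972 (-1.08 ± 0.10, adjusted p = 6.62e-10) and, at the threshold, MCA-948 against MCA-972 (-1.001 ± 0.10, adjusted p = 1.34e-09), whose call was lost when any of 18 single tumors was left out and was -0.58 with the run as a covariate. Fgfr1 and Fgfr2 did not share an order: MCA-969 was among the highest lines for Fgfr2 and the lowest for Fgfr1.

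Pdgfra, the receptor for PDGF-AA and PDGF-CC, was highest in MCA-943, at 1267, 1289, 1399 and 1729.6 CPM, and MCA-972, at 1129, 1265, 1476 and 1555 CPM. These lines overlapped and were not called apart (log2 fold change 0.07 ± 0.18, adjusted p = 0.776). MCA-970 had 647, 850.1 and 1068 CPM (lowest, median, highest), MCA-969 601, 804 and 917 CPM and MCA-948 375, 508 and 657 CPM. MCA-943 was 2.90-fold above MCA-948 (1.53 ± 0.15, adjusted p = 3.90e-10), and MCA-972 2.76-fold above it (1.47 ± 0.15, adjusted p = 1.34e-09). The other 8 differences were below a log2 fold change of 1 without the run as a covariate.

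Pdgfrb, the PDGF receptor that also marks pericytes, was lowest in MCA-969, at 55.4, 121 and 189.9 CPM, followed by MCA-948 at 146, 211 and 331 CPM. The 4 MCA-943 tumors had 454, 462, 493 and 522 CPM, the 4 MCA-972 tumors 387, 433, 448 and 464 CPM, and MCA-970 354, 524 and 592 CPM. The latter 3 lines overlapped and no pair of them was called, whereas each lay above both MCA-948 and MCA-969. MCA-970 was 3.91-fold above MCA-969 (log2 fold change 1.97 ± 0.20, adjusted p = 1.39e-09), MCA-943 3.85-fold and MCA-972 3.46-fold. The difference between MCA-948 and MCA-972 was just short of the fold threshold (-0.93 ± 0.21, adjusted p = 0.000451).

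The 8 pericyte and smooth muscle markers, summed, were lowest in the same 2 lines. The sums ranged from 107 to 343 CPM in MCA-969 and 127 to 247 CPM in MCA-948, against 754 to 874 CPM in MCA-943, 576 to 1033 CPM in MCA-972 and 266 to 531 CPM in MCA-970. In MCA-943 and MCA-972 most of the sum was Acta2, at 640.3 and 602 CPM on average, a gene that activated fibroblasts also express. The pericyte markers Rgs5, Abcc9, Kcnj8 and Notch3 did not follow Pdgfrb: Rgs5 had 4.35 and 1.87 CPM in MCA-943 and MCA-972, against 17.1 CPM in MCA-948, 23.8 CPM in MCA-969 and 47.0 CPM in MCA-970. The part of pericytes or smooth muscle in the Pdgfrb levels was not tested. Within MCA-948 r was 0.781 over 8 tumors (exact permutation p = 0.0132, adjusted 0.025; rho = 0.762, p = 0.0368, adjusted 0.0875; 0.5998 without the 2 farthest, 0.862 within 1 run). Within MCA-969 r was 0.902 (exact permutation p = 0.0119, adjusted 0.025; rho = 0.738, p = 0.0458, adjusted 0.0875) but 0.464 without the 2 farthest, so it rested on those tumors. In MCA-970 r was 0.723 over 6 tumors (exact permutation p = 0.156, adjusted 0.156; rho = 0.543, p = 0.297) and -0.833 without the 2 farthest.

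Egfr, the EGF receptor, followed Pdgfrb. The 4 MCA-943 tumors had 138, 148, 163 and 169 CPM, above every other tumor. The 4 MCA-972 tumors had 65.9, 84.5, 84.9 and 91.5 CPM, and the lowest, median and highest were 60.8, 99.0 and 124 CPM in MCA-970, 33.1, 42.9 and 66.7 CPM in MCA-948 and 20.4, 32.6 and 60.2 CPM in MCA-969. MCA-943 was 4.39-fold above MCA-969 (log2 fold change 2.13 ± 0.22, adjusted p = 2.42e-09) and 3.20-fold above MCA-948 (1.68 ± 0.22, adjusted p = 1.29e-07). The call between MCA-970 and MCA-948 (1.01 ± 0.20, adjusted p = 6.56e-05) sat at the threshold of the fold change and was lost when any of 13 single tumors was left out. Over the 8 MCA-948 tumors Egfr and Pdgfrb had r = 0.910 (exact permutation p = 0.00288, adjusted 0.0129; rho = 0.929, p = 0.00223, adjusted 0.01; 0.779 without the 2 farthest; 0.878 within 1 run). The same relation had r = 0.906 over the 6 MCA-970 tumors (exact permutation p = 0.0167, adjusted 0.025; rho = 0.8286, p = 0.0583, adjusted 0.0875; 0.775 without the 2 farthest). In MCA-969 r was 0.593 over 8 tumors (exact permutation p = 0.104, adjusted 0.117; rho = 0.643, p = 0.0962, adjusted 0.108; 0.516 without the 2 farthest) and 0.0633 within 1 run. These 9 relations were chosen after the values had been seen, and their p-values do not account for that choice.

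Erbb2, the ERBB family member without a known ligand of its own, fell into 3 levels. It was highest in MCA-943, at 24.7, 26.2, 28.8 and 29.2 CPM, above every other tumor. MCA-969 had 7.43, 12.3 and 13.8 CPM and MCA-970 8.44, 9.85 and 11.6 CPM, which overlapped and were not called apart (log2 fold change 0.21 ± 0.19, adjusted p = 0.324). The 4 MCA-972 tumors had 3.22, 4.11, 4.43 and 4.59 CPM and MCA-948 1.72, 3.003 and 5.69 CPM, again not called apart (adjusted p = 0.269). All 8 differences between these 3 levels were called, the largest 8.06-fold between MCA-943 and MCA-948 (3.01 ± 0.20, adjusted p = 1.45e-13). Erbb2 overlaps Mien1 in the annotation. With the run as a covariate, its differences between MCA-943 and both MCA-969 and MCA-970 were 0.68 and 0.64 and were not called.

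Axl, the receptor for the vitamin K-dependent ligand GAS6, had the highest RPKM of the 10 receptors in 3 lines and a coefficient of variation within lines of 1.39% to 16.3%. The 4 MCA-943 tumors had 1453, 1479, 1491 and 1501 CPM, above every other tumor, and the 4 MCA-972 tumors had 411, 450.0, 472 and 497 CPM, below every other tumor. The lowest, median and highest were 846, 936 and 1037 CPM in MCA-948, 750.4, 817 and 868 CPM in MCA-969 and 580.2, 658 and 879 CPM in MCA-970. All 10 pairs of lines had an adjusted p under 0.05, but only 3 a log2 fold change of 1: MCA-943 against MCA-972 (3.24-fold, 1.70 ± 0.10, adjusted p = 2.37e-14), MCA-943 against MCA-970 (2.16-fold) and MCA-948 against MCA-972 (2.05-fold). The last was not called without MCA-972 replicate 3, at 0.99, nor with the run as a covariate, at 0.97.

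Ddr2, which binds fibrillar collagen, was the steady member. Its values were 356, 383, 387 and 399 CPM in the MCA-943 tumors and 463, 478, 478 and 511 CPM in the MCA-972 tumors. The lowest, median and highest were 277, 394 and 522 CPM in MCA-948, 195, 378 and 409 CPM in MCA-969 and 343, 376 and 391 CPM in MCA-970. Its largest log2 fold change was -0.42 ± 0.14, between MCA-969 and MCA-972 (adjusted p = 0.0116), and the test across the 5 lines gave an adjusted p of 0.0582. The lowest value, 195 CPM, was that of MCA-969 W-2D, which was also the lowest MCA-969 tumor for Pdgfrb, Egfr, Erbb2, Met and Fgfr1.

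The study compared lines by their sensitivity to NK1.1+ cells in vivo, with MCA-943 and MCA-969 classed as non-sensitive and MCA-948, MCA-970 and MCA-972 as sensitive. Pairing each non-sensitive line with each sensitive one gives 6 comparisons, and 0 of the 10 receptors were called one way throughout them, against 0.878% of all genes. Erbb2 came nearest, higher in the non-sensitive line in 5 of the 6, the exception being MCA-969 against MCA-970. Kit was higher in MCA-969 than in each sensitive line but lower in MCA-943 than in each, 3 comparisons each way. With the run as a covariate, all 3 Kit calls of MCA-943 were lost, at -1.17 against MCA-948, -2.08 against MCA-970 and -2.23 against MCA-972. So was the Erbb2 call between MCA-943 and MCA-970, at 0.64. With 2 lines against 3, sensitivity cannot be told apart from other differences between the lines.

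Each title but 1 holds a W or an a, whose meaning is not stated in the labels or the paper's text. Over the 26 tumors of the 4 lines that hold both letters (12 W, 14 a), edgeR called 0 of the 10 receptors, against 0.230% of all genes. DESeq2 and limma-voom also called 0. At an unadjusted p under 0.05 were 2 receptors, Kit and Axl. The log2 fold change W minus a was -0.75 ± 0.31 for Kit (adjusted p = 0.585) and 0.12 ± 0.05 for Axl (adjusted p = 0.607). Of all 16557 genes tested for the letter, 1217 were under that unadjusted p. The difference of the letter effect between lines passed for 0 receptors and for 0.0181% of all genes. At an unadjusted p under 0.05 in this test were Pdgfra (adjusted p = 0.434) and Erbb2 (adjusted p = 0.403). The number of all genes under that unadjusted p was not counted, so these 2 are not read as a result. In MCA-948 the 4 W tumors and 4 a tumors did not overlap for Pdgfra (375 to 495 against 521 to 657 CPM) or for Met (4620 to 4876 against 2961 to 4233 CPM). Erbb2 in MCA-969 (W 7.43 to 11.7 CPM, a 12.96 to 13.8 CPM) and Axl in MCA-970 (W 664 to 879 CPM, a 580.2 to 653 CPM) did not overlap either. Each of the 10 receptors was checked in MCA-948, MCA-969 and MCA-970, and 2, 1 and 1 were apart. The share of all genes apart in this way was not counted, so these ranges are not read as letter effects. Of the 4 a tumors of MCA-948, 2 belong to another run than the rest, so letter and run are partly mixed.

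Most ligands of these receptors differed between lines. The list of 27 ligand genes holds, among others, Nrg1, which binds partners of ERBB2 rather than ERBB2 itself. Of these 27, 26 were tested and 24 were called across the 5 lines, against 58.0% of all genes. The median largest log2 fold change of the 26 was 2.66, against 1.19 for all genes. None of the 26 had its highest mean in MCA-948, and 10 had their lowest there. In MCA-943 also 10 had their lowest mean, and 7 their highest. The share of all genes with their lowest mean in a given line was not counted. In MCA-948 0 ligands were higher and 15 lower than in MCA-969, 0 higher and 12 lower than in MCA-970, and 2 higher and 13 lower than in MCA-972, while against MCA-943 6 were higher and 10 lower. In MCA-943, 6 were higher and 10 lower than in MCA-969, 2 and 12 than in MCA-970, and 3 and 10 than in MCA-972.

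Hgf, the ligand of Met, was lowest in the line where Met was highest: 27.9 ± 8.01 CPM in MCA-948, against 69.0 ± 34.5 CPM in MCA-969, 97.7 ± 9.96 CPM in MCA-943, 129.7 ± 18.1 CPM in MCA-972 and 168 ± 33.1 CPM in MCA-970. It was called lower in MCA-948 than in each other line, by 1.31 to 2.59 on the log2 scale. Kitl, which encodes stem cell factor, was called in no pair, with means of 44.9 to 67.1 CPM, so the line with high Kit did not have a called difference in its ligand. Gas6, the ligand of Axl, was lowest where Axl was highest, at 0.798 ± 0.267 CPM in MCA-943 against 2.401 to 7.48 CPM in the other lines.

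The ligands of the PDGF receptors did not move as a group. Pdgfd, a ligand of Pdgfrb, was called in 9 of 10 pairs, with 1.75 ± 1.43 CPM in MCA-948, 4.21 ± 1.23 CPM in MCA-969, 8.98 ± 3.58 CPM in MCA-943, 23.9 ± 2.17 CPM in MCA-970 and 29.4 ± 4.90 CPM in MCA-972. Pdgfc, a ligand of Pdgfra, was higher in MCA-970 (238 ± 21.1 CPM) and MCA-972 (230.5 ± 6.79 CPM) than in the other 3 lines, at 66.8 to 81.6 CPM. Pdgfb was called lower in MCA-972 than in each other line, and Pdgfa was called only between MCA-943 and MCA-969.

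Among the ligands of Egfr, Areg had 73.5 ± 52.7 CPM in MCA-969, 20.8 ± 6.57 in MCA-948, 11.6 ± 5.33 in MCA-970, 1.58 ± 0.293 in MCA-943 and 1.51 ± 0.511 CPM in MCA-972, and Ereg had 702 ± 647 CPM in MCA-969 but 18.8 ± 6.58 CPM in MCA-943. Both were thus highest in the line with the least Egfr, with a wide spread between its tumors. Hbegf ranged from 49.0 to 101 CPM. Nrg1, a ligand of ERBB3 and ERBB4, which pair with ERBB2, was called higher in MCA-943 (19.2 ± 2.45 CPM) than in MCA-948 and MCA-969. Among the FGFs, Fgf2 was called in 8 pairs, with 2.00 ± 0.350 CPM in MCA-948 and 17.5 ± 1.48 CPM in MCA-943. Fgf10, which acts through the epithelial form of FGFR2, had 13.6 ± 6.94 CPM in MCA-969 and 0.458 ± 0.0955 CPM in MCA-943, and Fgf7 was called in no pair. Col1a1, a collagen bound by Ddr2, was highest in MCA-943, at 13788 ± 957 CPM, against 2082 ± 725 CPM in MCA-948.

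**Figure D5:**
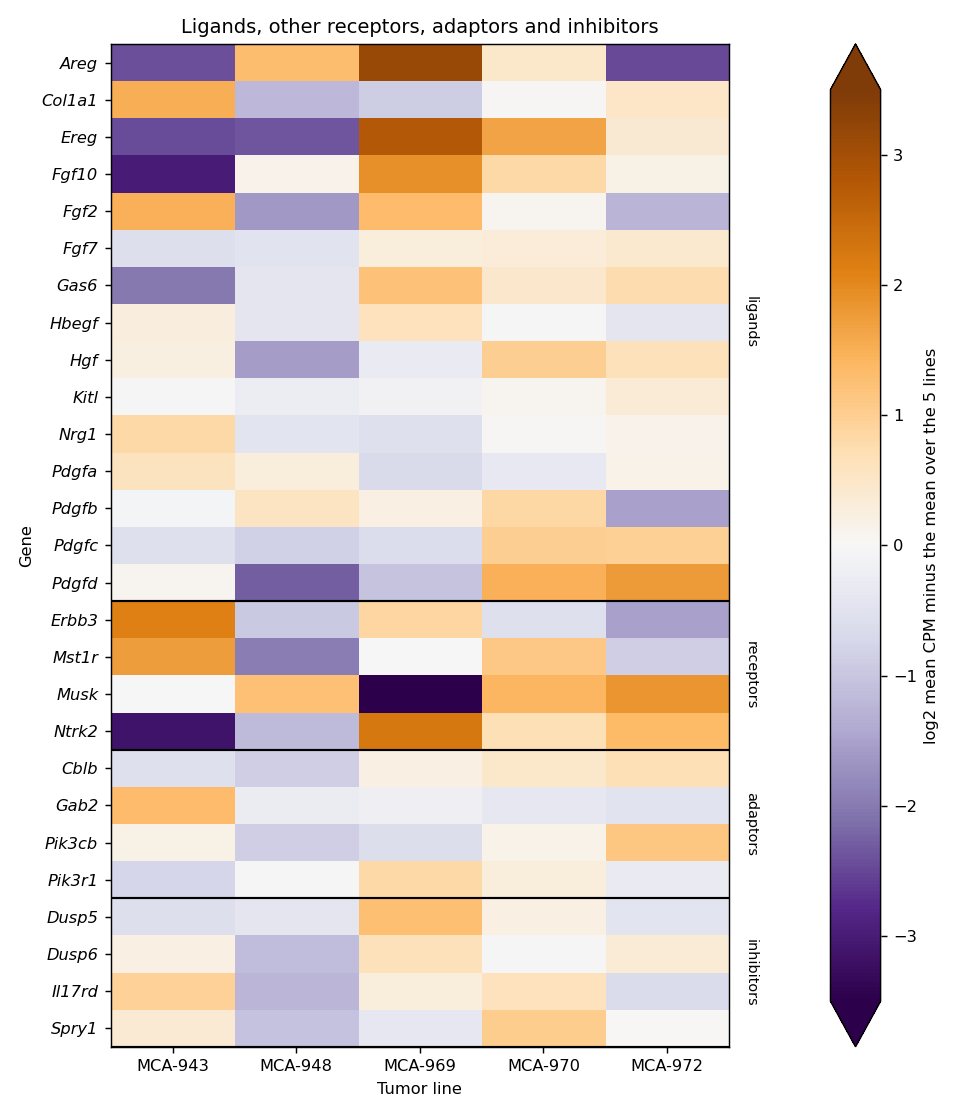
Log2 of the mean CPM of each line, minus the mean of the 5 lines, for the named ligands, other receptor tyrosine kinases, adaptors and feedback inhibitors; orange is above and purple below the mean of the gene, and colors are capped at the ends of the scale. In MCA-948, Hgf, Fgf2, Pdgfd, Il17rd, Spry1 and Dusp6 all lie below their means, and in MCA-969 Areg, Ereg and Fgf10 lie above theirs.

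Of 30 other receptor tyrosine kinases, 26 were tested and 20 called across the lines, or 76.9%, against 58.0% of all genes. Mst1r, the relative of Met that binds MSP, did not follow Met: it was lowest in MCA-948, at 1.25 ± 0.583 CPM, and highest in MCA-943, at 16.2 ± 1.43 CPM. Erbb3, the partner of Erbb2, had the same highest line, at 1.44 ± 0.393 CPM in MCA-943. It had 0.608 CPM in MCA-969 and 0.117 to 0.231 CPM in the sensitive lines. Ntrk2, the BDNF receptor, was highest in MCA-969, at 14.9 ± 5.67 CPM, as Kit was. Musk, the agrin-responsive kinase of the neuromuscular junction, was nearly absent in MCA-969, at 0.104 ± 0.0776 CPM. It had 2.29 CPM in MCA-943 and 5.50 to 8.44 CPM in the sensitive lines. The paper lists Erbb3 among its genes higher in non-sensitive tumors, and Musk among those lower. Kdr, Tie1, Tek and Csf1r in this list are also markers of endothelial cells or leukocytes.

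Few of the shared signaling genes downstream were called. Of 19 adaptors and effectors, 6 were called, or 31.6%, against 58.0% of all genes. Their median largest log2 fold change was 0.79, below the 1.19 of all genes. All 19 had an adjusted p under 0.05 in the edgeR test across the lines, so those not called fell short of the fold threshold only. Gab2, a docking protein, was called higher in MCA-943 (61.5 ± 2.71 CPM) than in each of the other 4 lines, at 17.6 to 21.7 CPM. Pik3cb, a catalytic subunit of PI3K, had 27.9 ± 4.002 CPM in MCA-948 and 112 ± 5.49 CPM in MCA-972. Cblb, a ubiquitin ligase that ends receptor signals, and Pik3r1, a regulatory subunit of PI3K, were called in 5 and 3 pairs. The core genes Grb2, Sos1, Ptpn11, Src and Stat3 were called in no pair.

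Feedback inhibitors of receptor signaling were called for 11 of 17 genes, or 64.7%, near the 58.0% of all genes, and their median largest log2 fold change of 1.201 was near the 1.19 of all genes. None had its highest mean in MCA-948 and 7 had their lowest there, beside 5 with their lowest in MCA-943. Dusp6, a phosphatase of ERK that rises when ERK is active, had 55.2 ± 9.65 CPM in MCA-948, called lower than in each of the other 4 lines (117 to 189.7 CPM). Spry1 had 31.4 ± 6.54 CPM in MCA-948 and 131 ± 8.77 CPM in MCA-970, and Il17rd 9.49 ± 2.16 CPM in MCA-948 and 42.4 ± 3.93 CPM in MCA-943. Dusp5 was called higher in MCA-969 than in each other line, at 135 ± 120 CPM, with a spread nearly as large as the mean. Protein and phosphorylation were not measured.

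The genes whose log2 CPM was most like each receptor over the 30 tumors, by Pearson r, were Steap3 and Medag for Pdgfra (0.934 and 0.932), Pkd2 and Stard13 for Pdgfrb (0.966 and 0.957), Dnajc3 and Capn2 for Egfr (0.935 and 0.934) and Flrt2 and Paqr4 for Erbb2 (0.944 and 0.921). For Met they were its neighbor Gm43844 and, on another chromosome, Cdk12 (both 0.941). Cdk12 differed far less, with 101 CPM on average in MCA-948 and 62.6 to 69.1 CPM elsewhere. They were Bloc1s3 and Metrn for Axl (0.959 and 0.936), Fmnl3 and P3h1 for Fgfr1 (0.955 and 0.952), Evc2 and Emilin2 for Fgfr2 (0.958 and 0.956), Epb41l4b and Tcam1 for Kit (0.932 and 0.928) and Jcad and Nhs for Ddr2 (0.850 and 0.849). The 30 tumors share 5 lines, so these values mostly reflect 5 levels; with the line means removed r was 0.267 for Gm43844 and 0.360 for Cdk12, but 0.858 for Jcad and 0.861 for Nhs. Among the receptors themselves, Pdgfrb and Egfr were the most alike over the 30 tumors (0.907, and 0.735 with line means removed). Met and Fgfr2 were the most opposed (-0.811, and -0.09 with line means removed). With line means removed, Pdgfrb and Ddr2 were as alike as Pdgfrb and Egfr, at 0.743, and Egfr and Ddr2 had 0.643. The tumor MCA-969 W-2D was the lowest of its line for Ddr2, Pdgfrb and Egfr. The values of Ddr2 with line means removed, also those with Jcad and Nhs, may lean on that tumor and were not computed without it.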

How the data were processed

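RNA was sequenced from 30 tumors of 5 MCA-induced fibrosarcoma lines after removal of CD45+ cells. Counts were deposited by the authors as whole-number gene counts, with gene lengths, for 48440 genes on GRCm38. Per the labels, reads were aligned with STAR 2.5.3a and counted with featureCounts 1.5.2 (the study's methods name another version of featureCounts); the strand setting is not given in the sources used here. Columns of no sample used here numbered 0. Totals ranged from 27745104 to 46537062 counts (median 35039383), and the low-count limit of 3 counts covers counting error only. Per the file headers, the counted reads carried molecular identifiers (UMIs) and had duplicates removed; the tool is not given in the sources used here.

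Gene symbols were matched through GENCODE M21 (48058 genes named). Genes passing filterByExpr by line were tested with the quasi-likelihood test of edgeR 4.0.16 (R 4.3.3) after TMM scaling, with all 30 tumors in 1 fit and the line as the factor. Calls required p under 0.05 after Benjamini-Hochberg adjustment over all 16862 genes tested and a log2 fold change of at least 1. Title letters were tested with the line as a covariate. Correlations used exact permutation tests, two-sided. Scripts were tested on simulated data. Alternatives included DESeq2 1.42.0, limma-voom (limma 3.58.1), other scalings and filters, and leaving out each tumor. The run, from stretches of nearly consecutive library numbers in the file headers, was also used as a covariate. The 10 receptors were all described; list genes were named by the number of pairs called and as ligands of the receptors, and 2 genes most alike were named for each receptor by Pearson r; Grb2, Sos1, Ptpn11, Src and Stat3 were named outside that rule. Receptors and gene lists were chosen with earlier results of these data known.

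Tumors of different lines with the same animal code, matched without regard to the letter, were compared by their deviations from the line means. Over 62 such pairs these correlated at a mean r of -0.00721, from -0.430 to 0.444, against a mean of 0.00163 for different codes. A pairing by code and letter together was not tested, so a pairing of tumors across lines is not excluded.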

Additional observations from a re-analysis of the deposited data

Results flagged for a closer look

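A tumor stood far from the other tumors of its line, by the gap to the nearest tumor over the range of the line, in 17 of 210 groups checked (42 genes in 5 lines); chance alone gives about 1 in 20. Among the receptors this held for 5 of 50 groups. Met was highest in MCA-969 W-1D, with a gap of 0.844 of the range, and Kit in MCA-943 a-R, with 0.881. Fgfr2 was highest in MCA-948 a-2D (0.608) and in MCA-970 W-2D (0.694), and Ddr2 was lowest in MCA-969 W-2D (0.758). Among the neighbors of Met, Cav2 stood out in MCA-970 W-2D (0.658) and Cav1 in MCA-943 a-1G (0.974). Among the ligands, Pdgfb was low in MCA-948 a-2G (0.601) and high in MCA-969 W-R (0.535), Pdgfc was high in MCA-972 a-R (0.832), Kitl low in MCA-969 W-2D (0.666), Nrg1 high in MCA-970 a-1D (0.715), Fgf7 high in MCA-970 W-2D (0.692) and Ereg high in MCA-943 a-1G (0.856). Ntrk2 was high in MCA-948 W-2G (0.541), and Dusp5 in MCA-948 a-R (0.644) and MCA-972 a-R (0.898).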

How the results depend on the processing

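Under the alternatives other than leaving out a tumor, 900 values kept their direction and their side of the threshold, 69 lost the call, 33 gained it and 2 reversed. Both reversals came with the run as a covariate: Fgfr1 between MCA-943 and MCA-972 was 0.14 and Ddr2 between MCA-970 and MCA-972 was 0.0175 on the log2 scale. Without the fold threshold, 5 receptors were called between MCA-943 and MCA-970, 8 between MCA-948 and MCA-969 and 5 between MCA-970 and MCA-972, and 19 adaptors and 17 feedback inhibitors across the lines, as were 15866 of all 16862 genes. With a log2 fold change of at least 2, 5 receptors were called across the lines, 3 between MCA-943 and each of MCA-948 and MCA-969, 1 between MCA-943 and MCA-970, 2 between MCA-948 and each of MCA-970 and MCA-972 and between MCA-969 and MCA-970, and 1 between MCA-972 and each of MCA-969 and MCA-970. With only the tumors of 1 run, 1 receptor was called between MCA-948 and MCA-969, with 2 tumors a line. MCA-943 shares no run with MCA-969, MCA-970 or MCA-972, nor MCA-972 with MCA-948 or MCA-970, so those pairs have no within-run value, and their run-adjusted values rest on the lines that span 2 runs. With the animal code as a replicate block, 8 receptors were called across the lines and 0 between title letters. Leaving out a tumor ended 46 calls, over 7 differences. Fgfr2 in MCA-948 was at the limit of the depth.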
